A study of Homo sapiens with 32 samples.

Results

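The homeobox (HOX) genes encode transcription factors that give cells their position along the body axis, and they lie in 4 clusters, A to D, numbered by position within each cluster. In cell lines of adult epithelia, parts of these clusters stay active as a record of where the tissue came from, and the posterior genes are those linked to the prostate. HOX proteins bind DNA together with PBX and MEIS cofactors, and Polycomb and Trithorax proteins keep the clusters silent or active. Here 10 HOX genes were followed in PC-3 cells, a long-established line grown from a human prostate adenocarcinoma: HOXC4, HOXC6, HOXC8, HOXC9, HOXC10, HOXC13, HOXB13, HOXB7, HOXA10 and HOXA13. They were chosen by gene symbol, with earlier results of these data known, and each was read from its brightest probe. Of the 10 genes, 8 had a probe on the array, and 7 passed a filter that kept the upper 60% of probes by mean level. These 7 are among 10598 genes tested, of 16591 genes with a probe. HOXC10 had only a dim probe, and HOXA10 and HOXA13 were not analysed here, since no probe of the annotation used was assigned to them.

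Expression was read on 32 Illumina single-colour arrays. Cells had received 4-hydroperoxycyclophosphamide, called active in the labels, or cyclophosphamide, called inactive, or vehicle, for 10, 24 or 48 h. For the active compound there were 2 treated arrays each at 10 and 24 h, 3 treated arrays at 48 h and 3 vehicle arrays per time. The inactive-compound experiment held 3 treated and 3 vehicle arrays at 10 and 24 h, and 2 of each at 48 h. The controls are labelled untreated, while the protocol calls them vehicle. A dose of 5.5 µM is stated for the active compound, and for the inactive one it is less certain, because the protocol and the design text differ on it. All groups are 1 cell line with no other genetic change named, grown in serum-containing medium. Whether the replicates were grown apart is not stated, so the p-values rest on array-to-array spread that may be technical.

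Each experiment was fitted on its own 16 arrays, and a gene was called when its limma p-value, adjusted by Benjamini-Hochberg over the 10598 genes, was under 0.05. Changes are log2 differences, treated minus vehicle, unless another direction is given. Arrays of the active compound's experiment were brighter (75th percentile of raw intensity 431 to 656) than those of the inactive compound's (275 to 416). Their typical residual SD was also smaller, at 0.122 against 0.220 log2 units. On the axis from 10 to 24 h, 4 arrays of the inactive-compound experiment lay on the other time's side, namely replicate 3 of the treated and of the vehicle group at 10 h and at 24 h. In the active-compound experiment 1 array did so, vehicle replicate 3 at 10 h. Arrays of 48 h were not placed on this axis, so whether any of them carries the wrong time was not checked. The 48 h comparison of treated and vehicle arrays contains none of these 5 arrays. Most of the listed epithelial and PC-3 markers were bright on these arrays. KRT8, KRT18, KRT19, EPCAM, VIM and CD44 stood between the 92.1st and 98.4th percentile of probes. CDH1 of the same list and the prostate luminal genes KLK3, FOLH1 and ACP3 did not pass the filter. No more than 1 gene passed of the 6 fibroblast markers (COL1A1) and of the 5 blood cell markers (PTPRC). In bulk RNA such as this, fewer cells of a type and less RNA per cell cannot be told apart.

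The window around the HOXC4 start is printed because the RefSeq gene table gives HOXC4, HOXC5 and HOXC6 the same start, while the bright probes of HOXC4 and HOXC6 changed in opposite directions at 48 h of the active compound and HOXC5 was dim. The sequence is RefSeq's, on GRCh38.p14 at chr12:54016638-54016937, plus strand, from 250 bases before to 50 bases after the start, and the promoter table lists the same window for HOXC5. Capitals mark the CCAAT box, here read on the minus strand:
HOXC4: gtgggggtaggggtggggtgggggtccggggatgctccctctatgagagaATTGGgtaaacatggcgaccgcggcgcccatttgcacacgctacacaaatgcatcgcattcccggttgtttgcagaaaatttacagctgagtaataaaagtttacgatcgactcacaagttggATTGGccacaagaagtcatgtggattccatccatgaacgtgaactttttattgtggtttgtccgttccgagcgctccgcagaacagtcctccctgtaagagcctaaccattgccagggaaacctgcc
Both matches of CCAAT (searched on both strands, with no overlap) were on the minus strand, beginning at positions -200 and -77 from the start, and 34.6% of the 35116 windows of this length hold the motif. TATAAA, held by 11.5% of windows, GGGCGG, held by 45%, and the PBX and HOX motif TGATNNAT, held by 7.4%, were not in this window. It held 15 CG dinucleotides, against a median of 14 over all windows. The gene table gives 1 start per gene, so the start of the transcript that each bright probe measures was not known here.

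After 48 h of the active compound, 4 of the 7 HOX genes were called, and they split evenly: HOXC4 and HOXC9 fell, and HOXC6 and HOXC8 rose. Over all genes tested 9.82% were called, 4.99% higher and 4.83% lower. The list of genes was chosen with earlier results of these data known, so its share beside that of all genes is no test. All 4 lie in the HOXC cluster, but of the 7 genes only HOXB13 and HOXB7 lie outside it. Among other HOX genes outside this cluster, HOXA2 (-0.50) and HOXB5 (0.28) were called at 48 h as well. HOXC13, HOXB13 and HOXB7 did not pass. The median change of the 7 genes was -0.08, beside -0.01 for all genes tested.

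HOXC4, an anterior gene of its cluster that is used in lymphoid and epithelial cells, had log2 levels of 7.54, 7.33 and 7.37 at 48 h of the active compound, against 8.13, 8.22 and 8.08 in vehicle cells. Every treated array was below every vehicle array, with a gap of 0.54 between the groups, and at this time 29.0% of all genes had groups that did not overlap. Raw intensities were 276, 231 and 220 in the treated cells, against 402, 419 and 330 in vehicle cells. HOXC4 thus fell to 7.42 ± 0.11 in treated cells, against 8.14 ± 0.07 in vehicle cells (SD, n = 3 each), which is 1.66-fold lower (log2 change -0.73, SE 0.10, adjusted p = 1.99e-05 by limma). At 24 h of the active compound its levels were 7.75 and 7.63, against 7.93, 7.97 and 7.83 in vehicle cells. The groups did not overlap, as was so for 30.1% of all genes at that time, and the change of -0.22 did not pass (adjusted p = 0.391). At 10 h the levels were 8.33 and 7.97 in treated cells and 8.04, 7.99 and 7.78 in vehicle cells, overlapping, with a change of 0.21 (adjusted p = 0.309). Without treated replicate 2 at 10 h the change was 0.39 and passed (adjusted p = 0.0393), and without treated replicate 1 it was 0.03 (adjusted p = 0.996).

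HOXC9, a posterior gene that marks the thoracic level of the body axis, stood at 7.79, 7.66 and 7.79 after 48 h of the active compound and at 8.31, 8.07 and 8.21 in vehicle cells. Again no treated array reached a vehicle array. It fell to 7.75 ± 0.08 in treated cells, against 8.20 ± 0.12 in vehicle cells (SD, n = 3 each), a change of -0.45 (SE 0.09, adjusted p = 0.00110). At 10 h the change was 0.00 and at 24 h 0.03, with overlapping groups at both times.

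HOXC6, a mid-cluster gene whose product is often raised in prostate cancer, read 9.42, 9.16 and 9.24 after 48 h of the active compound, against 8.82, 8.84 and 8.86 in vehicle cells. The vehicle arrays lay close together, and all treated arrays were above them. The change was 0.43 (SE 0.10, adjusted p = 0.00427). At 10 and 24 h it was -0.06 and 0.03 and did not pass. HOXC8, the gene between HOXC9 and HOXC6 in the cluster, read 9.65, 9.68 and 9.73 in treated cells at 48 h and 9.24, 9.42 and 9.37 in vehicle cells. All treated arrays were above all vehicle arrays, and the change of 0.34 passed (SE 0.09, adjusted p = 0.0167). This call was lost without vehicle replicate 1 at 48 h (0.29, adjusted p = 0.0886) and without treated replicate 3 at 48 h (0.32, adjusted p = 0.0628). At 24 h HOXC8 stood at 10.00 and 9.79 in treated cells and at 9.51, 9.56 and 9.57 in vehicle cells. The groups were apart, and the change of 0.35 did not pass (adjusted p = 0.0869).

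**Figure D1:**
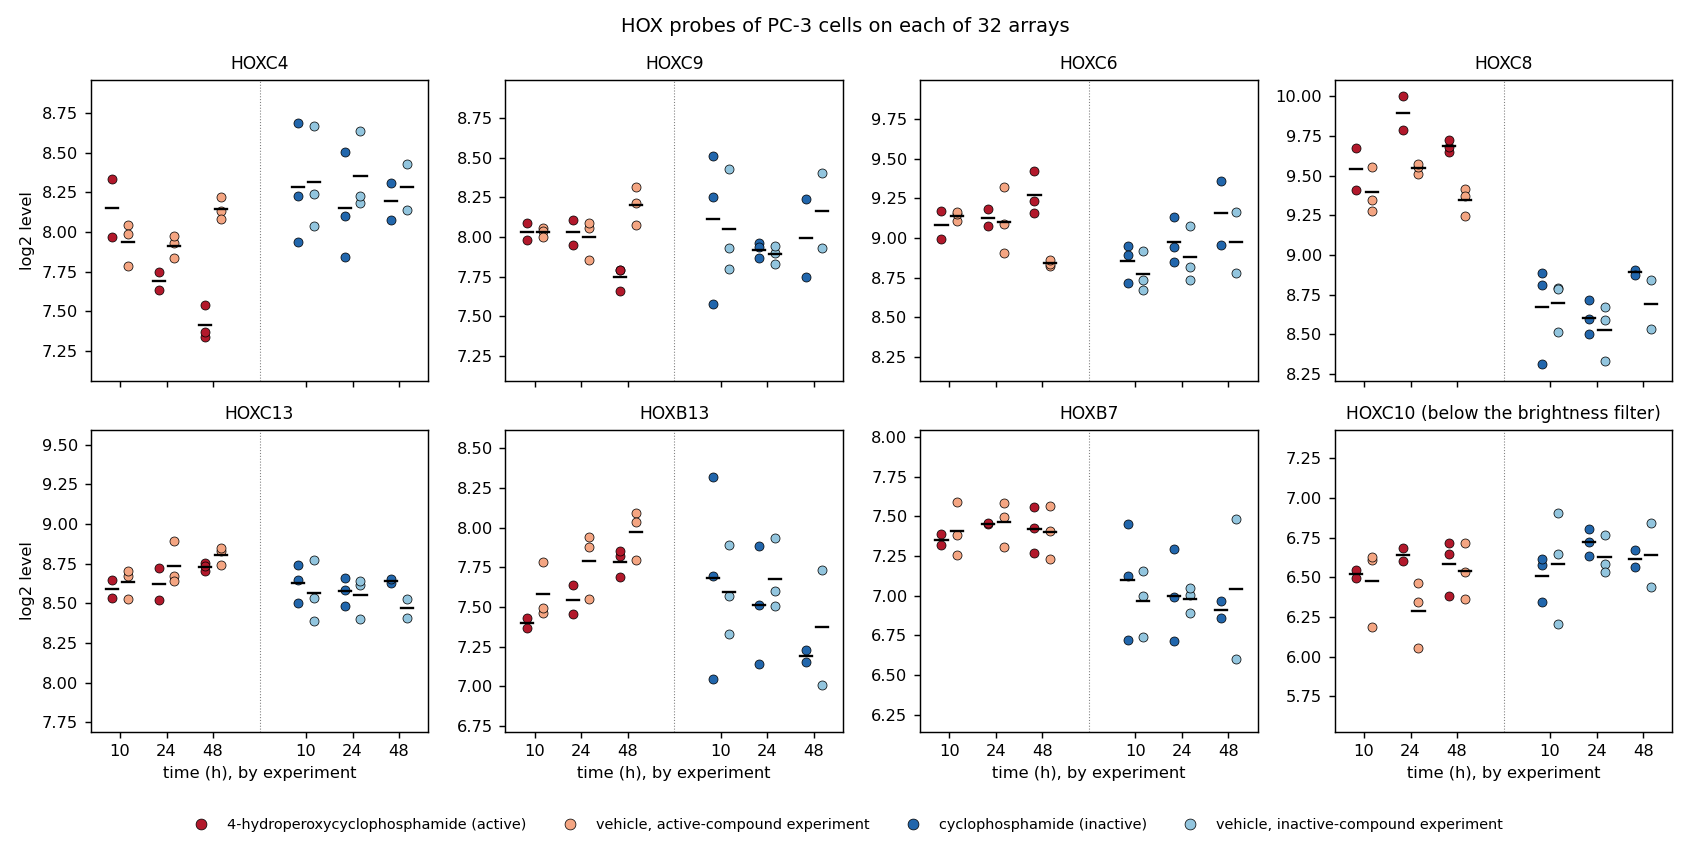
Log2 level of the brightest probe of each of the 8 measured HOX genes on each of the 32 arrays. Points are arrays and bars group means, with treated left of vehicle at 10, 24 and 48 h, the active-compound experiment left of the dotted line and the inactive one right of it; each panel spans the same log2 range. At 48 h of the active compound HOXC4 lies between 7.33 and 7.54, against 8.08 to 8.22 in vehicle cells.

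The remaining genes showed no call at 48 h of the active compound. HOXC13, the most posterior gene of its cluster and a regulator of hair keratins, had 8.71, 8.75 and 8.73 in treated cells, against 8.83, 8.74 and 8.85 in vehicle cells. The groups overlapped, and the change was -0.08 (95% interval -0.25 to 0.10). HOXB13, the posterior HOXB gene that partners the androgen receptor in prostate cells, had 7.82, 7.85 and 7.69 in treated cells and 8.09, 8.03 and 7.80 in vehicle cells. Its change was negative at 10, 24 and 48 h (-0.18, -0.24 and -0.19), none of which passed, and -0.20 on average over the times (adjusted p = 0.0531). This average lay close to the threshold, and some other settings put it below, such as a trended, robust prior (adjusted p = 0.0472). HOXB7, a mid-cluster HOXB gene, had 7.56, 7.42 and 7.27 in treated cells and 7.23, 7.57 and 7.41 in vehicle cells. Its change was 0.02 (95% interval -0.19 to 0.23). HOXC10 was dim, at the 33.6th percentile of probes with a mean log2 level of 6.56, under the filter's 6.66. In a fit without the filter its changes were 0.04, 0.36 and 0.04 at 10, 24 and 48 h, and none passed (adjusted p = 0.386 at 24 h).

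HOXC4 and HOXC6 had a second probe each. The second HOXC4 probe, designed to another transcript, was at the 14.3rd percentile and changed by -0.03 at 48 h of the active compound. The second HOXC6 probe was at the 47.8th percentile and changed by 0.07 there (95% interval -0.15 to 0.29). Both changes were nearer to 0 than those of the bright probes, and the values given for HOXC4 and HOXC6 elsewhere are those of the bright probes.

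At 10 and 24 h of the active compound 0 of the 7 genes were called, where 1.61% and 1.91% of all genes were. At an unadjusted p under 0.05 in limma there were 0 of the 7 at 10 h, where 17.6% of all genes were under it, and there was 1 at 24 h, HOXC8, beside 12.8% of all genes. The 24 h share is near that background and the 10 h share below it. Averaged over the times, 2 were called, beside 10.9% of all genes. HOXC8 was higher by 0.28 (SE 0.06, adjusted p = 0.00199) and HOXC4 lower, with a change of -0.25 (SE 0.06, adjusted p = 0.00918). The average for HOXC4 joins a positive value at 10 h with negative ones later.

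**Figure D2:**
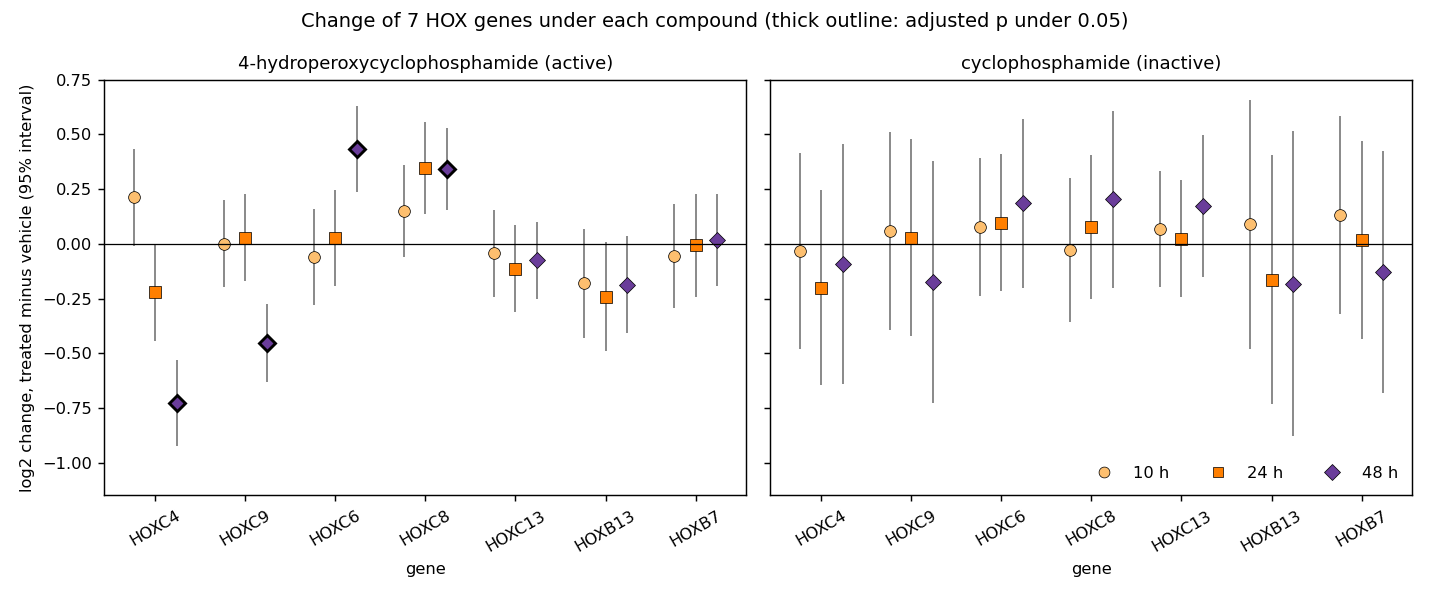
Log2 change, treated minus vehicle, with its 95% interval, for the 7 HOX genes that passed the filter, at 10, 24 and 48 h of the active compound (left) and the inactive compound (right). Thick outlines mark adjusted p under 0.05: HOXC4 at -0.73, HOXC9 at -0.45, HOXC6 at 0.43 and HOXC8 at 0.34, all at 48 h of the active compound.

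The change of the effect between times was tested directly. From 10 to 48 h the effect on HOXC4 moved by -0.94 (SE 0.14, adjusted p = 0.000363), that on HOXC9 by -0.45 (SE 0.13, adjusted p = 0.0422) and that on HOXC6 by 0.49 (SE 0.14, adjusted p = 0.0452). That is 3 of 7 genes, beside 5.06% of all genes. Without vehicle replicate 3 at 10 h, the array on the other time's side, HOXC4 kept its call (-0.86, adjusted p = 0.00165), while HOXC9 and HOXC6 lost theirs (adjusted p = 0.0936 and 0.0945). Leaving out any 1 of the 11 arrays kept the HOXC4 call, and the calls of HOXC9 and HOXC6 were each kept in 1 of 11 cases. For HOXC8 the difference was 0.19 (adjusted p = 0.464). From 10 to 24 h and from 24 to 48 h no HOX gene was called, beside 0.708% and 0.377% of all genes. At an unadjusted p under 0.05 there was 1 of the 7 over the first step, HOXC4 (-0.43), beside 13.4% of all genes. Over the second there were 3, HOXC4 (-0.51), HOXC9 (-0.48) and HOXC6 (0.41), beside 8.23% of all genes. Without treated replicate 2 at 10 h the first step passed (-0.62, adjusted p = 0.0248).

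In vehicle cells of the active-compound experiment, 2 of the 7 genes differed between 48 and 10 h, beside 11.6% of all genes. HOXB13 stood at 8.09, 8.03 and 7.80 in vehicle cells at 48 h and at 7.78, 7.46 and 7.49 at 10 h. The arrays of 48 h were all above those of 10 h, by 0.39 in the mean (SE 0.11, adjusted p = 0.0187). HOXC6 stood at 8.82, 8.84 and 8.86 in vehicle cells at 48 h and at 9.11, 9.15 and 9.16 at 10 h, a change of -0.30 (SE 0.10, adjusted p = 0.0419). Neither call is firm: that of HOXC6 was lost with any of the 6 arrays left out (adjusted p up to 0.118) and that of HOXB13 in 4 of 6 cases. Without vehicle replicate 3 at 10 h the changes were 0.35 and -0.29 (adjusted p = 0.0719 and 0.0978). Of the 6 epithelial and PC-3 markers tested over the same span, 1 rose, 1 fell and 4 were not called, beside 11.6% of all genes called. Their median was 0.10. KRT19, a simple-epithelium keratin, rose by 0.90 and CD44, a surface receptor for hyaluronan, fell by 0.31. Their part in the HOX values was not tested. The steps from 10 to 24 h and from 24 to 48 h called 0 of the 7 genes, beside 1.26% and 2.77% of all genes, with 0 and 4 of the 7 at an unadjusted p under 0.05, beside 14.4% and 16.7% of all genes. These 4 were HOXC4 (0.23), HOXC9 (0.20), HOXC6 (-0.26) and HOXC8 (-0.20). They are the 4 genes called at 48 h of the active compound, and each moved the opposite way in vehicle cells. The vehicle arrays of 48 h enter both comparisons, and their part in the 48 h changes was not tested. The HOXC6 levels of cells treated for 48 h (9.42, 9.16 and 9.24) thus lay well above vehicle cells of 48 h and close to vehicle cells of 10 h.

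Under the inactive compound 0 of the 7 genes were called at 10, 24 or 48 h or on average, where limma called 0% of all genes in each case. At an unadjusted p under 0.05 there were 4.95%, 1.06%, 1.48% and 4.26% of all genes at 10, 24 and 48 h and on average, and 0 of the 7, which is near that background. HOXC4 had 8.08 and 8.31 at 48 h of the inactive compound and 8.14 and 8.43 in its vehicle cells. These overlap, and the change was -0.09 (95% interval -0.64 to 0.46). For HOXC9, with 7.75 and 8.24 against 7.93 and 8.40 in vehicle cells, it was -0.17 (95% interval -0.73 to 0.38). HOXC6 changed by 0.19 (-0.20 to 0.57) and HOXC8 by 0.20 (-0.20 to 0.61). The intervals are wide, and those of HOXC9, HOXC6 and HOXC8 contain the active compound's change, while that of HOXC4 does not contain -0.73. All 8 pairs of treated and vehicle arrays with neighbouring title letters deviated together in this experiment, but these are not 8 independent values. With 2 arrays per group at 48 h, both pairs of that time must have the same r (0.43). At 10 and 24 h the 4 arrays of doubtful time are paired with each other, and they move the group means for the other pairs. Whether time or pairing made the arrays of 10 and 24 h deviate together was not tested. With the pairs as a block the intervals narrowed to -0.47 to 0.29 for HOXC4, -0.61 to 0.26 for HOXC9, -0.07 to 0.44 for HOXC6 and -0.17 to 0.58 for HOXC8, and the same holds of them. Treated and vehicle arrays did not overlap at 48 h for HOXC8 and HOXC13, both higher in treated cells, as was so for 27.3% of all genes. At 10 h the HOXC4 levels spread over 8.23, 7.94 and 8.68 in treated cells and 8.67, 8.04 and 8.24 in vehicle cells, so the arrays of each group differed by more than the groups did. With those 4 arrays of doubtful time left out its change was -0.27 at 10 h and -0.24 at 24 h, and still 0 of the 7 genes were called. Between any 2 times in vehicle cells of this experiment, limma called 0 of the 7 genes, beside 0% of all genes, and 0 of the 7 had an unadjusted p under 0.05, beside 1.81% to 2.26% of all genes.

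The compounds differ by the hydroperoxy group that the active one carries on its ring and cyclophosphamide lacks. Cyclophosphamide is a prodrug that needs liver enzymes, and the hydroperoxy derivative forms the active metabolite in medium without them. The effects of the compounds on the 7 genes were compared at 10, 24 and 48 h and on average, with p-values adjusted over all genes tested. None of these was called, beside 0.0189% of all genes at 10 h, 0.0283% at 24 h, 0.0189% at 48 h and 0.179% on average. At 48 h the effect on HOXC4 was -0.73 for the active and -0.09 for the inactive compound, a difference of -0.64 (95% interval -1.18 to -0.10, unadjusted p = 0.0227, adjusted p = 0.822). For HOXC9 the difference was -0.28 (-0.80 to 0.24), for HOXC6 0.25 (-0.19 to 0.69) and for HOXC8 0.14 (-0.30 to 0.57). The intervals for HOXC9, HOXC6 and HOXC8 hold both 0 and the full effect of the active compound. In this fit HOXC4 at 48 h alone had an unadjusted p under 0.05, which is 1 of the 7 genes, beside 5.17% of all genes at that time. At 10 and 24 h and on average none of the 7 had one, beside 6.76%, 3.59% and 8.83% of all genes. The share at 48 h rests on 1 gene. With neighbouring title letters as pairs, the 48 h difference for HOXC4 had a 95% interval of -1.04 to -0.23 (adjusted p = 0.156). Compound and experiment cannot be told apart.

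Vehicle levels of some of the 7 genes differed between the experiments. HOXC8 in the 9 vehicle arrays of the active-compound experiment averaged 9.43 ± 0.13, and in the 8 of the inactive-compound experiment 8.63 ± 0.17 (SD), and the ranges were apart (9.24 to 9.57 and 8.33 to 8.84). HOXB7 averaged 7.42 ± 0.14 in the active compound's vehicle arrays and 6.99 ± 0.27 in the inactive compound's. HOXC4 ranged from 7.78 to 8.22 in the active compound's vehicle arrays and from 8.04 to 8.67 in the inactive compound's. Vehicle means in the active and inactive compound's experiments were 8.08 and 8.02 for HOXC9 and 9.03 and 8.86 for HOXC6. They were 7.78 and 7.57 for HOXB13 and 8.72 and 8.54 for HOXC13. Of the 7 genes only HOXC8 had ranges that were apart, and the share of all genes with such ranges was not computed. Over the 12 groups, HOXC4 was lowest at 48 h of the active compound (7.42), followed by 24 h of the active compound (7.69), and the arrays of these groups overlapped neither each other nor the next group. The other 10 group means ran from 7.91 to 8.35, and neighbours in that order overlapped except the vehicle groups of the active-compound experiment at 10 and 48 h.

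In chromosome order the HOXC cluster runs from HOXC13 through HOXC12, HOXC11, HOXC10, HOXC9, HOXC8, HOXC6 and HOXC5 to HOXC4. At 48 h of the active compound the called genes were lower at HOXC9, higher at HOXC8 and HOXC6, and lower at HOXC4, so neighbours HOXC9 and HOXC8 went opposite ways. HOXC12, HOXC11, HOXC10 and HOXC5 were under the filter, and in the fit without it their changes were -0.01, 0.01, 0.04 and 0.09.

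**Figure D3:**
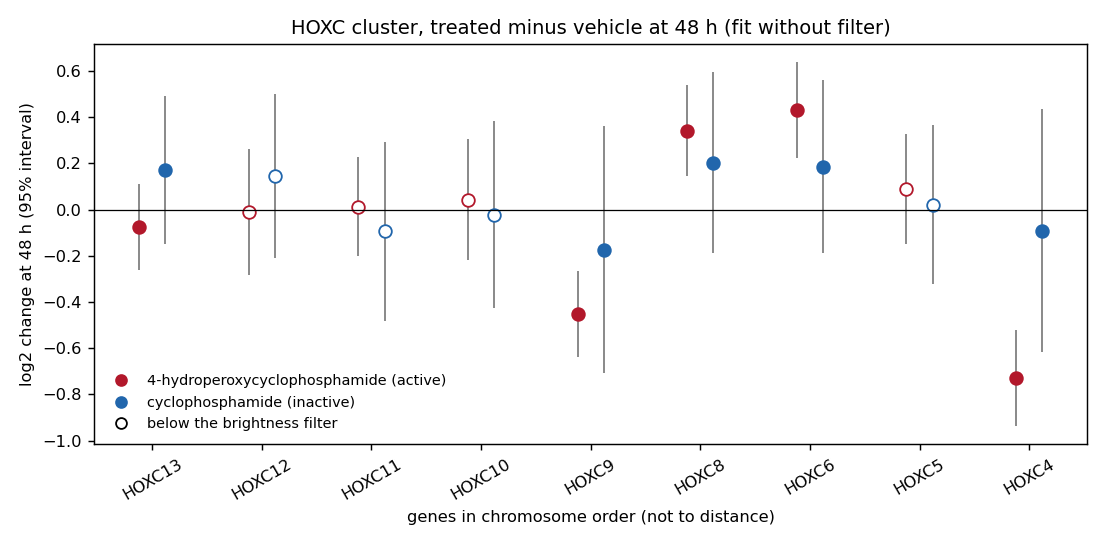
Log2 change at 48 h, treated minus vehicle, with 95% intervals, for the 9 genes of the HOXC cluster in chromosome order, from a fit without the brightness filter; red is the active and blue the inactive compound, and hollow points are genes under the filter. HOXC9 and HOXC4 lie below 0 and HOXC8 and HOXC6 above it under the active compound.

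Genes flanking the cluster showed 0 calls among 6 tested at 48 h of the active compound, a count that a background of 9.82% does not set apart. SMUG1, a uracil DNA glycosylase gene on the HOXC4 side of the cluster, was at 0.23 (adjusted p = 0.0759). ATP5MC2, a subunit of ATP synthase, was at -0.25 (adjusted p = 0.0565), HNRNPA1, an RNA-binding splicing factor, at -0.30 (adjusted p = 0.195) and CBX5, a heterochromatin protein, at 0.08. The median of the 6 was -0.03.

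Of 29 other HOX genes, 21 had a probe and 8 were tested. HOXA2, an anterior gene that patterns the hindbrain and its neural crest, had 7.67, 7.74 and 7.62 at 48 h of the active compound, against 8.09, 8.15 and 8.29 in vehicle cells. The groups were apart, and HOXA2 fell by 0.50 on the log2 scale (SE 0.08, adjusted p = 0.000192), a call that was kept with each of the 6 arrays left out. Its levels in vehicle cells were higher at 48 than at 10 h, by 0.32 (adjusted p = 0.0109). HOXB5, a gene of the middle of its cluster, had 9.95, 9.94 and 9.97 in treated cells, against 9.76, 9.67 and 9.60 in vehicle cells. HOXB5 rose by 0.28 (adjusted p = 0.0213), a call that was lost in 5 of 6 cases with an array left out: without treated replicate 1, 2 or 3 or vehicle replicate 2 or 3 (adjusted p up to 0.0986). HOXB8, also mid-cluster, was at -0.30 (adjusted p = 0.0650) and HOXB9, next to it, at 0.19 (adjusted p = 0.298). The other 4 genes lay between -0.08 and -0.06. On average over the times 2 of the 8 were called, beside 10.9% of all genes: HOXA2 fell by 0.26 (adjusted p = 0.00118) and HOXB9 rose by 0.21 (adjusted p = 0.0439). The HOXB9 call was kept in 4 of 16 cases with an array left out, and without treated replicate 1 at 10 h the value was 0.14 (adjusted p = 0.230). Under the inactive compound 0 of the 8 were called. HOXA2 was at -0.39 at 24 h, -0.23 at 48 h and -0.23 on average there, with an active minus inactive difference of -0.03 on average (95% interval -0.23 to 0.18) and of -0.27 at 48 h (-0.65 to 0.11). HOXB5 at 48 h was at -0.12 under the inactive compound, a difference of 0.40 (0.03 to 0.77, adjusted p = 0.929). Larger differences, not called by limma either, were seen for HOXD3 at 48 h (-0.69, -1.14 to -0.23, adjusted p = 0.476). The same holds for HOXB3 at 10 h (-0.66, -1.02 to -0.30, adjusted p = 0.269).

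**Figure D4:**
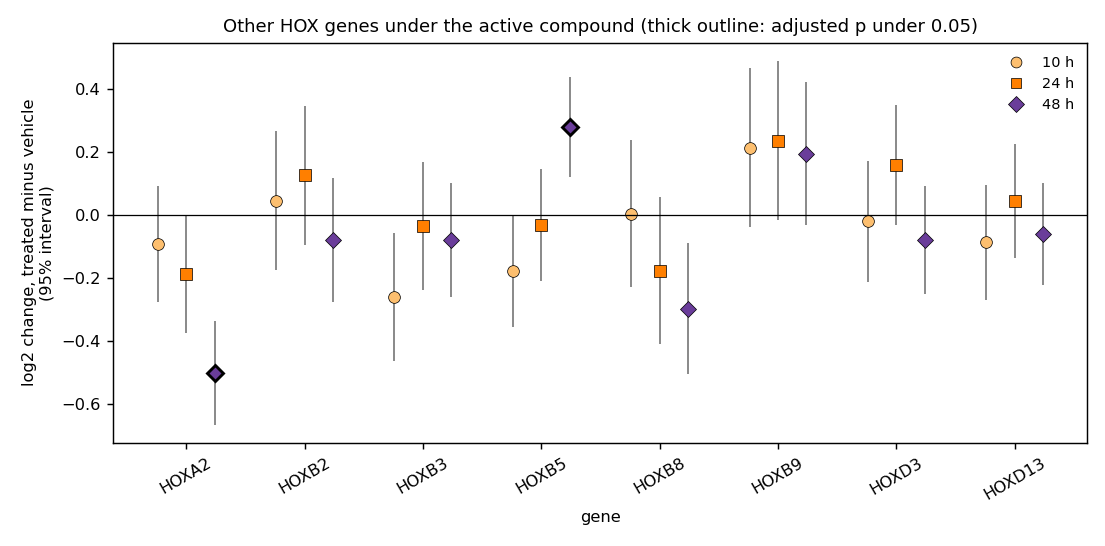
Log2 change under the active compound, treated minus vehicle, with 95% intervals, at 10, 24 and 48 h for the 8 other HOX genes that passed the filter. HOXA2 at 48 h is at -0.50 and HOXB5 at 48 h at 0.28, both with thick outlines for adjusted p under 0.05.

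Of the TALE homeodomain cofactors that bind DNA with HOX proteins, 1 of 6 tested was called at 48 h of the active compound, beside 9.82% of all genes, a count near the background. PBX3, a direct partner of HOX proteins, fell by 0.31 (SE 0.09, adjusted p = 0.0337) and by 0.28 on average over the times (adjusted p = 0.00229). PBX4, PBX2 and MEIS3 of the same family were at 0.17, -0.13 and -0.11 and did not pass. The list's median was -0.08.

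Of 14 tested Polycomb genes, whose products hold HOX clusters silent, 2 fell and 1 rose at 48 h of the active compound, beside 4.83% lower and 4.99% higher over all genes, with a median of -0.07. EZH2, the enzyme that writes the repressive histone H3 mark, fell by 0.41 (SE 0.10, adjusted p = 0.00886), and PHC1, a subunit of the other Polycomb complex, fell by 0.33 (SE 0.09, adjusted p = 0.0200). JARID2, which guides the EZH2 complex to its sites, rose by 0.31 (SE 0.09, adjusted p = 0.0305), and SUZ12, a core subunit, was at -0.15. Of 9 tested Trithorax and COMPASS genes, which keep HOX genes active, 0 were called, beside 9.82% of all genes, with PSIP1, WDR5, DPY30 and ASH2L at -0.16, -0.19, 0.07 and 0.08 and a median of -0.05.

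Marker lists at 48 h of the active compound were as follows. TMPRSS2, a protease of prostate luminal cells, rose by 0.34 (adjusted p = 0.0355), while the other tested luminal gene, SLC45A3, was at 0.01. The mean level of the 5 luminal probes ran from 7.14 to 7.22 in treated cells and from 7.02 to 7.15 in vehicle cells, which overlap. Of 6 tested epithelial and PC-3 markers 0 were called, and COL1A1 and PTPRC did not pass. Mean levels of the 6 fibroblast probes (6.45 to 6.51 in treated and 6.46 to 6.56 in vehicle cells) overlapped, as did those of the 5 blood cell probes (6.37 to 6.40 in treated and 6.32 to 6.42 in vehicle cells). The part of the luminal markers in the HOX values was not tested.

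Levels of the called genes were also compared with every other gene over the 16 arrays of the active-compound experiment, by Pearson correlation among 10591 genes. The arrays share treatment and time, so these values describe likeness and nothing more. Closest to HOXC4 were RSAD1 (r = 0.921), CABLES2 (0.919) and CILK1 (0.917), which changed by -0.62, -0.53 and -0.53 at 48 h. RSAD1 was also near HOXC9 (0.828), after PAPOLA (0.839) and PLD5 (0.838). HOXC6 was nearest to DAP3 (0.837), CDC34 (0.814) and SDF2 (0.802), and HOXC8 to C19orf48P (0.893), ZNF330 (0.879) and NOB1 (0.866). In the 16 inactive-compound arrays the same partners of HOXC4 had r of -0.17, 0.42 and 0.34. There HOXC6 had -0.16 with DAP3, -0.26 with CDC34 and 0.58 with SDF2. HOXC8 had 0.51 with C19orf48P, 0.33 with ZNF330 and -0.54 with NOB1 in those arrays. HOXC9 had -0.21 with PAPOLA, 0.28 with PLD5 and -0.56 with RSAD1. Among the HOX genes themselves, HOXC4 and HOXC9 had r = 0.68 in the active-compound arrays and -0.02 in the inactive-compound arrays. HOXC6 and HOXC9 had -0.68 in the active-compound arrays and 0.44 in the inactive-compound arrays, and HOXC4 and HOXC8 had -0.57 in the active-compound arrays and -0.74 in the inactive-compound arrays.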

How the data were processed

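The authors deposited 1 linear intensity per probe and array. They also deposited log2 values, which rank the probes of each array as the intensities do (Spearman at least 0.999). BeadStudio and R 2.12.0 are named in the submitters' processing notes, and how the log2 values were normalized is not stated there. Intensities were corrected with normexp (offset 50), quantile-normalized over 32 arrays and taken to log2 (limma 3.58.1, R 4.3.3). Of 20589 probes, 18332 have 1 gene symbol in the annotation, 0 several, and 2257 are not listed. Dim probes were dropped, keeping the upper 60%, and the brightest probe stood for a gene.

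Group means were fitted to each experiment's 16 arrays, and compound differences to all 32 with array weights per experiment. The number of arrays limits the precision. The fit was also tested on simulated arrays, with 200 of 10598 genes changed. The members, lists and tests were chosen with earlier results of these data known. Genes named from a list are up to 4 with the smallest p at 48 h of the active compound and any called there, and for likeness the 3 with the highest correlation. Control and treated arrays of neighbouring title letters deviated together in the inactive-compound experiment (r 0.16 to 0.69 over 8 pairs, all above 0.1), less so in the active one (-0.04 to 0.25). Both 48 h pairs of the inactive-compound experiment have the same r by construction, so its 8 values are not independent. The labels do not say what the letters mean. Other settings are offset 16, no background correction, median scaling, other fits and blocks, the authors' values and leaving out each array.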

Additional observations from a re-analysis of the deposited data

Results flagged for a closer look

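The effect of the active compound differed between 48 and 10 h, by a test of the difference itself, for 3 of the 7 HOX genes. It also differed for 2 of the 8 others tested, beside 5.06% of all genes. The difference (48 minus 10 h) was -0.94 for HOXC4, -0.45 for HOXC9, 0.49 for HOXC6, 0.46 for HOXB5 (adjusted p = 0.0214) and -0.41 for HOXA2 (adjusted p = 0.0488, lost with any of 11 arrays left out). With 1 of 11 arrays left out, the HOXC4 call was always kept, and those of HOXC9 and HOXC6 were each kept in 1 of 11 cases. The HOXB5 call was lost without treated replicate 1 at 10 h (adjusted p = 0.113), vehicle replicate 2 at 10 h (0.0596) or vehicle replicate 3 at 48 h (0.0506). Times of 10 and 48 h used different vehicle arrays.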

How the results depend on the processing

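No called HOX value changed sign in any setting. HOXC4 at 48 h of the active compound was called in 11 of 11 other settings (-0.86 to -0.60) and HOXC9 and HOXC6 in 10 of 11, HOXC8 in 9 of 11. With 1 spread shared by 32 arrays, only HOXC4 stayed called at 48 h (1 gene, against 4), 0 were called on average, for the vehicle change from 10 to 48 h and for the effect change from 10 to 48 h. Median scaling left 1 call on average (HOXC8), 1 in the vehicle change (HOXC6) and 1 in the effect change (HOXC4), and lost HOXC8 at 48 h (adjusted p = 0.0611). Under it 466 genes were called at 48 h, 68.5% of them higher, against 1041 with 529 higher. Offset 16 and no filter left 1 vehicle call (HOXB13) and 1 effect change (HOXC4) each. Quantile normalization within each experiment and the mean of probes left 1 vehicle call (HOXB13), and both lost the effect change of HOXC6. The effect change from 10 to 48 h was called for HOXC4 in 10 of 11 other settings. For HOXC9 it was called in 7 of 11 and for HOXC6 in 5 of 11. With an array left out, the counts ran from 0 to 1 at 10 h, from 0 to 1 for the vehicle change, from 0 to 1 for the effect change from 10 to 24 h and from 1 to 2 for that from 10 to 48 h; at 48 h they were 3 or 4. With the title-letter run as a replicate block, 4 members were called at 48 h, and HOXC4 was called for the effect change from 24 to 48 h (1 gene, -0.55, adjusted p = 0.0447). HOXB13 passed on average with either block (adjusted p = 0.00920 and 0.0241) and with a trended, robust prior (0.0472). Neither block changed a call of the inactive compound. The difference between compounds for HOXC4 at 48 h had adjusted p from 0.156 to 1 over the settings. Dim probes such as HOXC10 have no limit of detection here.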

Other observations

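HNRNPA1, which lies near the HOXC cluster, fell by 0.33 on average over the times of the active compound (SE 0.09, adjusted p = 0.0149), which makes 1 call among the 6 flanking genes tested, near the 10.9% of all genes called. From 10 to 48 h the change of the effect was called for 1 Polycomb gene upward and 1 downward, of 14 tested, beside 5.06% of all genes. The effect on EZH2 moved by -0.59 (adjusted p = 0.0225) and that on JARID2 by 0.52 (adjusted p = 0.0258). No link between these values and those of the HOX genes was tested.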
